A study of Mus musculus with 8 samples.

Results

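The S100 calcium-binding genes were followed in newborn mouse epidermis that lacked the Polycomb subunit EED. The set held 10 genes, namely S100a3, S100a4, S100a6, S100a7a, S100a8, S100a9, S100a10, S100a11, S100a14 and S100a16, read by 12 probes of an array with 36799 genes and other targets. These genes were listed by name with earlier results of these data known. Other small S100 genes, among them S100a1, S100a2, S100a5 and S100a13, were kept out of the set. Of the 10, 9 passed the filter on dim probes and were tested, among 23139 tested targets. The tenth, S100a7a, was not well above background in the epidermis channel of any of the 8 arrays.

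Epidermis came from the back skin of C57BL/6 mice on the day of birth (P0), 4 EED cKO (K14-Cre; EED flox/flox) and 4 control. K14-Cre is active in keratinocytes of the basal layer and their descendants, so cells of other lineages in the peeled epidermis should have kept Eed. The labels describe the other mice as controls and give no further genotype, and the sex of the animals is not given in the sources used here. Each RNA shared its array with Universal Mouse Reference RNA, a purchased mix used unchanged on all 8, with the epidermis in Cy3 on replicates 1 and 3 and in Cy5 on replicates 2 and 4 of both genotypes. All 8 arrays lay on 1 slide, EED cKO in one row and control in the other, so slide row and genotype cannot be told apart.

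S100 proteins are small proteins with a pair of EF-hand motifs, and most of them bind calcium and then dock onto target proteins. They have no enzyme activity of their own. Some act inside the cell on annexins and the cytoskeleton, and some are released as alarm signals or antimicrobial proteins. Most mouse S100 genes lie together on chromosome 3 in the epidermal differentiation complex, a cluster that also holds the genes for loricrin, involucrin, filaggrin-type proteins, small proline-rich proteins (Sprr) and late cornified envelope proteins (Lce), the building material of the skin barrier. EED is a core subunit of Polycomb repressive complex 2 (PRC2), which methylates histone H3 at lysine 27, a mark of silenced genes that is mostly found at promoters rich in CG dinucleotides.

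The promoters of the 3 members with the largest log2 fold changes (S100a6, S100a8 and S100a9) and of the member with the smallest (S100a11) are shown to let their sequence be set side by side. Each line holds the 250 bases before the RefSeq start site on GRCm38.p6, written 5′ to 3′ on the strand of the gene. Capitals mark CG dinucleotides, the motif TATAAA and the motif TGANTCA, both motifs searched on both strands. No match of one overlapped a match of another.
S100a6, chr3:90612644-90612893, plus strand: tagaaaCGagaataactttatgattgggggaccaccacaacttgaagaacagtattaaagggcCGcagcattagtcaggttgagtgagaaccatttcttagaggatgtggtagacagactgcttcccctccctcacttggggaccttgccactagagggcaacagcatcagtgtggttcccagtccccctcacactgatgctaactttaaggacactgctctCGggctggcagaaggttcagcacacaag
S100a8, chr3:90668821-90669070, plus strand: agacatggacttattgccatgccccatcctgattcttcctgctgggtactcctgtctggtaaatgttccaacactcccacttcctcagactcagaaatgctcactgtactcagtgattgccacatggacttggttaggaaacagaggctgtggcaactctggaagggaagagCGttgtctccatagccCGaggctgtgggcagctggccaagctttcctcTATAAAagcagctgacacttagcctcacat
S100a9, chr3:90695722-90695971, minus strand: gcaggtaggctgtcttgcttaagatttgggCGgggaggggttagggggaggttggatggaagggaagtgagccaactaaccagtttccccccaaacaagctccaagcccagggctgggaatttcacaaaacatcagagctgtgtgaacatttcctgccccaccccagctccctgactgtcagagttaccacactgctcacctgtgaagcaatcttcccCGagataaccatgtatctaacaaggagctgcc
S100a11, chr3:93520246-93520495, plus strand: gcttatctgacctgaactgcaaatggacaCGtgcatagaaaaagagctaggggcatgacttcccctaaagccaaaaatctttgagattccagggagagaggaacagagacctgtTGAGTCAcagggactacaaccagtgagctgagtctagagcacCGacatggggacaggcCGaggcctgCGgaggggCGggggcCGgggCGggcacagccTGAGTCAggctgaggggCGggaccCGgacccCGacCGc
The S100a6 window held 3 CG dinucleotides, the S100a8 and S100a9 windows 2 each and the S100a11 window 11. These 4 were picked by their fold changes, and members that did not pass the test had low counts as well, with 2 in the S100a4 window and 1 and 3 in the pair of S100a16 windows. Over all 32851 promoter windows of the same length the median was 6, with quartiles of 2 and 16. TATAAA stood 30 bases before the start of S100a8, and 12.4% of all windows hold that motif. Among members not shown, it also stood 31 bases before the start of S100a4 and 52 bases before a start of S100a3. TGANTCA, which binds AP-1 factors, was found 136 and 38 bases before the start of S100a11, and 6.75% of all windows hold it. A start of S100a16 also had TGANTCA 192 bases before it. Neither motif was present in these windows of S100a6 and S100a9. RefSeq windows were matched for 8 of the 10 members. No window was matched for S100a10 and S100a14. The arrays measure RNA, and binding or histone marks at these promoters were not measured here.

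Of the 9 tested members, 6 were higher in EED cKO (S100a3, S100a6, S100a8, S100a9, S100a10 and S100a14), 0 were lower, and S100a4, S100a11 and S100a16 did not pass the test. The test was limma with the dye as a covariate, with p-values adjusted by Benjamini-Hochberg over all 23139 targets, and a gene was called at an adjusted p below 0.05. By the same test 21.7% of all targets were called, 11.8% higher and 9.93% lower in EED cKO. The members were chosen with earlier results of these data known, so these shares do not test the count of 6. No member was lower at an unadjusted p below 0.05 either, nor by the methods' t-test after adjustment. The median log2 fold change was 0.35 over the 9 members and 0.019 over all tested targets. S100a6 and S100a9 were also past a 2-fold change, as were 1.2% of all targets. In these same 2 genes the lowest EED cKO array was above the highest control array, a pattern that 9.67% of all targets showed. The count of 6 fell to 3 without EED cKO replicate 2, 3 or 4 or without control replicate 2, and was 5 or 4 without any of the other arrays. It was 2 without the dye term. S100a6, S100a8 and S100a9 were called whichever single array was left out. S100a8 passed the filter on dim probes through the EED cKO arrays only, and the filter used all 8 arrays in each of these fits. In RNA from whole epidermis, more cells of a type and more RNA per cell cannot be told apart.

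**Figure D1:**
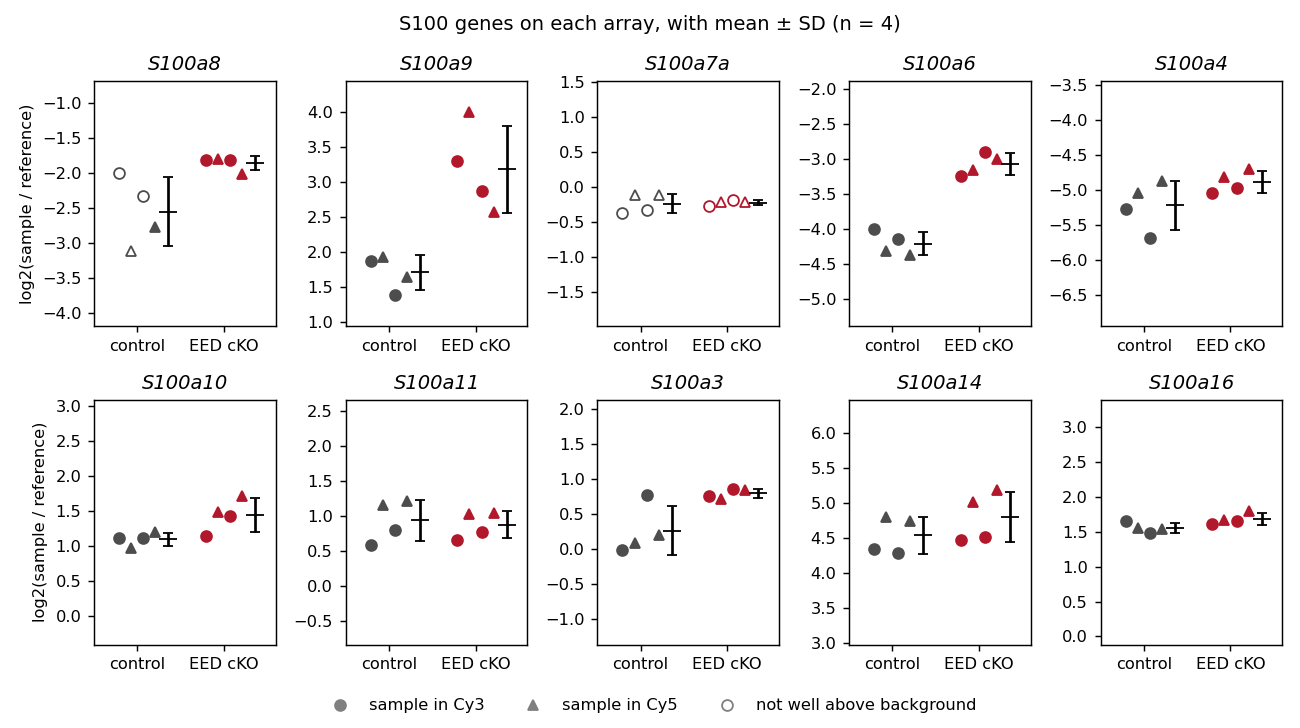
Log2 ratio of epidermis over reference (vertical axis, every panel spanning the same range) on each of the 8 arrays for the 10 S100 genes, with the mean and SD of each genotype beside the points. EED cKO lies apart from control in S100a6 and S100a9, S100a8 was not well above background on 3 control arrays, and S100a7a was below that limit on all 8.

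**Figure D2:**
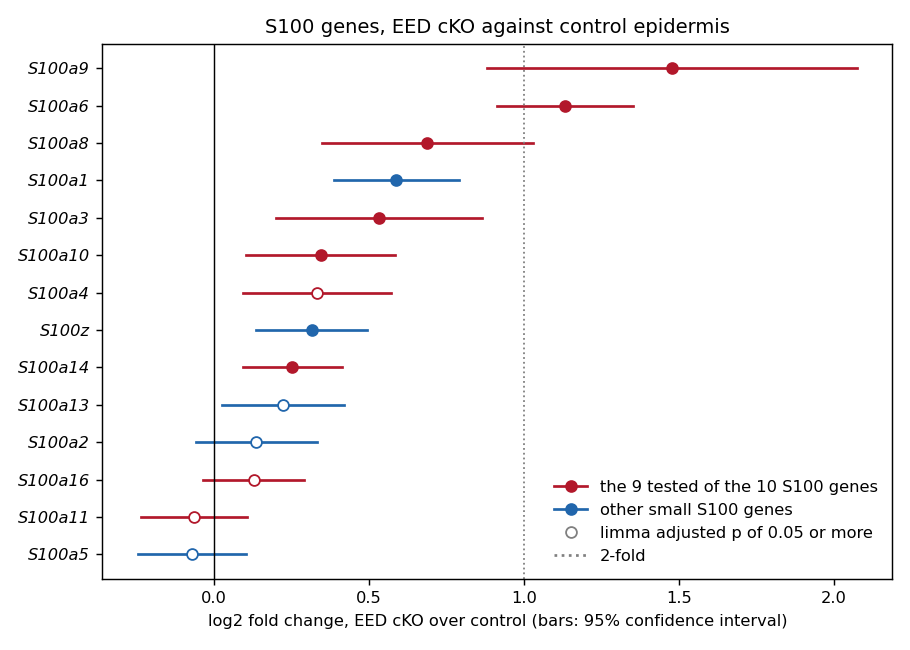
Log2 fold change of EED cKO over control (horizontal axis) with its 95% confidence interval from limma for the 9 tested S100 genes of the set and 5 other small S100 genes. S100a9 (1.48) and S100a6 (1.13) lie past the 2-fold line, and S100a11 (-0.064) and S100a5 (-0.069) are the only points below 0.

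S100a8 and S100a9 form calprotectin, a heterodimer that binds calcium and zinc, is abundant in neutrophils and is made by keratinocytes under stress. With the processing used here S100a9 had the largest log2 fold change of the set, whereas with the Feature Extraction log ratio it was at 0.14, below S100a8 at 2.19 and S100a6 at 1.14. Its log2 ratios of epidermis over reference were 3.30, 4.00, 2.86 and 2.57 on EED cKO arrays 1 to 4 and 1.87, 1.93, 1.38 and 1.64 on control arrays 1 to 4. Every EED cKO array was above every control array, and EED cKO replicate 2 was the highest. The means were 3.18 ± 0.62 (SD, n = 4) and 1.70 ± 0.25 (SD, n = 4), a log2 fold change of 1.48 (adjusted p = 0.0053 by limma, standard error 0.27), or 2.78-fold. An exact two-sided permutation test that exchanged all 8 arrays freely gave p = 0.0286, the smallest that 4 arrays against 4 can give. Sign flips within the 4 same-numbered pairs gave an exact two-sided p of 0.125, the smallest that 4 pairs allow. Between arrays with the same replicate number the log2 ratio differed by 0.93 to 2.07. Among arrays with the epidermis in Cy3 the difference was 1.45 (limma adjusted p = 0.0308), and among those with it in Cy5 it was 1.50 (limma adjusted p = 0.0744).

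The reference mix held little S100a9, and there its probe cleared the background limit on 3 of the 8 arrays, so the ratio has a weak denominator. In the epidermis channel the processed intensity was 1457, 2623, 895 and 801 on EED cKO arrays 1 to 4 and 424, 327, 221 and 263 on control arrays 1 to 4. The lowest EED cKO value was above the highest control value. The processed reference intensity, from the same RNA on every array, was 21.1, 46.2, 17.1 and 16.2 beside EED cKO and 7.17, 4.00, 9.83 and 4.20 beside control, again without overlap. A ratio of these processed signals, which is what the deposited table holds, gave a log2 fold change of 0.14 (limma adjusted p = 0.803). The epidermis channel alone, with no reference, gave 1.51 (limma adjusted p = 0.00838). The reference channel alone differed by 0.20 (95% confidence interval 0.056 to 0.35, limma adjusted p = 0.452). Each of these single-channel values came after background correction with the offset and quantile normalization between arrays. What raised the reference signal on the EED cKO arrays was not tested.

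S100a8 was dim in epidermis. Its log2 ratios were -1.81, -1.81, -1.82 and -2.01 on EED cKO arrays 1 to 4 and -2.00, -3.11, -2.32 and -2.77 on control arrays 1 to 4. Control replicate 1 lay just above EED cKO replicate 4, and the other control arrays were lower than all EED cKO arrays. The log2 fold change was 0.69 (adjusted p = 0.0122 by limma, standard error 0.15), or 1.61-fold. By exact permutation, two-sided, p was 0.0571. The probe was well above background in the epidermis channel on all 4 EED cKO arrays and on 1 control array, replicate 4. It was thus tested only because it passed the filter on dim probes in EED cKO. The offset of the background correction draws such dim ratios toward 0. The processed epidermis intensity was 109, 244, 123 and 116 on EED cKO arrays and 51.0, 13.8, 25.6 and 36.1 on control arrays, with no overlap. The size of the rise varied with the processing, from 0.43 for the epidermis channel alone to 1.17 with a smaller offset and 2.19 for the Feature Extraction log ratio, all with a limma adjusted p below 0.05. It was 0.34 (limma adjusted p = 0.246) within the Cy3 arrays and 1.04 (limma adjusted p = 0.0178) within the Cy5 arrays, and without the dye term the limma adjusted p was 0.0599.

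**Figure D3:**
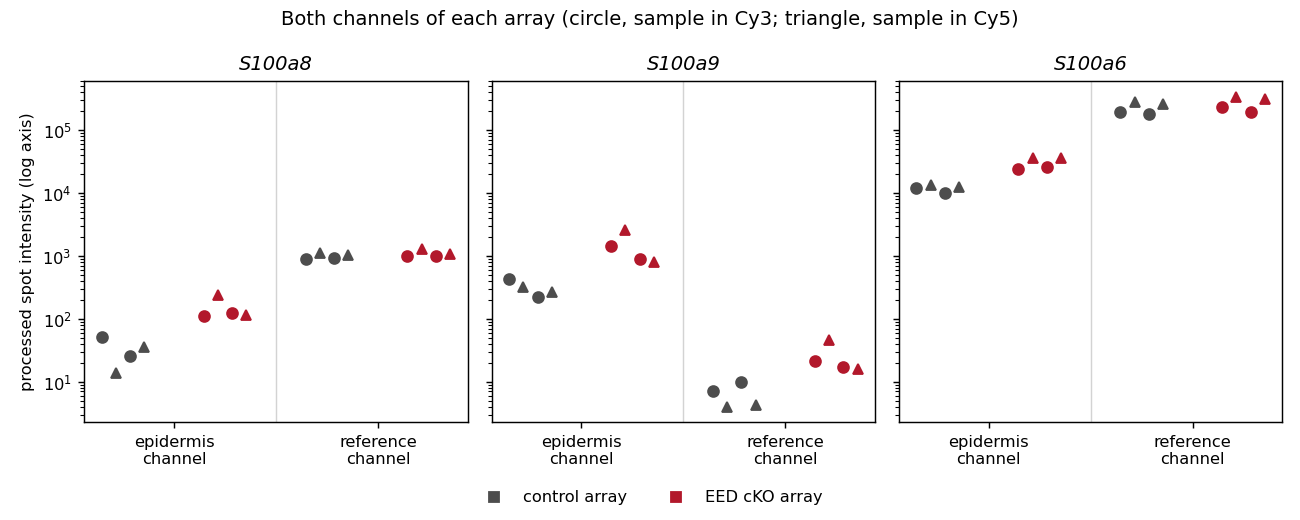
Processed spot intensity (log axis) of S100a8, S100a9 and S100a6 in the epidermis and the reference channel of each array. For all 3 genes every EED cKO array lies above every control array in the epidermis channel, and for S100a9 the same is seen in the reference channel, where the values range from 4.00 to 46.2.

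Of the neutrophil and myeloid markers, 13 were on the array and 8 were tested. Camp, which encodes cathelicidin, was higher by 0.29 on the log2 scale (limma adjusted p = 0.0187), and 7 did not pass the test. The mean log2 ratio of the 8 tested markers per array ranged from -1.02 to -0.99 in EED cKO and from -1.18 to -0.98 in control. The granule protein genes Ltf, Ngp and Mmp8, the receptor gene Cxcr2 and Retnlg were not well above background on any array. The part of these cells in the calprotectin values was not tested beyond this.

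S100a7a, a relative of human psoriasin, had log2 ratios of -0.28 to -0.19 on the EED cKO arrays and -0.38 to -0.12 on the control arrays. Its probe was above background in the reference channel on 6 of 8 arrays and in the epidermis channel on 0, so neither genotype has more than a bound and no difference can be given. The receptors known for calprotectin and related S100 proteins did not pass the test where they were measured. Ager, the receptor for advanced glycation end products, differed by 0.036 (limma adjusted p = 0.796), Bsg by 0.099 (limma adjusted p = 0.396) and Cd36 by 0.17 (limma adjusted p = 0.358). The Ager signal was well above background on 3 EED cKO and 2 control arrays, so Ager passed the filter through EED cKO only. Its log2 fold change ran from -0.023 to 0.41 under the alternatives, with no call. Tlr4 was not well above background on any array.

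S100a6 (calcyclin) binds annexins and the ubiquitin ligase adaptor Cacybp and is linked to proliferating and stressed cells. Its log2 ratios were -3.23, -3.16, -2.89 and -3.00 on EED cKO arrays 1 to 4 and -4.00, -4.31, -4.14 and -4.37 on control arrays 1 to 4. The gap between the groups was wider than the range within either of them. The means were -3.07 ± 0.15 (SD, n = 4) and -4.20 ± 0.17 (SD, n = 4), a log2 fold change of 1.13 (adjusted p = 0.000157 by limma, standard error 0.098), or 2.19-fold. The exact permutation p was 0.0286 over all 8 arrays and 0.125 within pairs, in each case the smallest possible. Both channels were bright. The processed epidermis intensity ran from 24613 to 36666 in EED cKO and from 9908 to 13545 in control, and the reference from 180970 to 343712 over all arrays. S100a6 was called with at least a 2-fold change under all 26 alternatives, which gave log2 fold changes of 1.00 to 1.27. Same-numbered arrays differed by 0.76, 1.15, 1.25 and 1.37. Of the proteins that S100a6 binds, Cacybp differed by 0.083 (limma adjusted p = 0.631) and Sugt1 by 0.005 (limma adjusted p = 0.972), whereas Anxa11 rose by 0.31 (limma adjusted p = 0.0285) and Anxa5 fell by 0.40 (limma adjusted p = 0.0133). Anxa6, another annexin, differed by -0.072 (limma adjusted p = 0.4995), and Anxa1 and Anxa2 are given with S100a11 and S100a10 below. The Anxa11 call was lost without EED cKO replicate 2, 3 or 4 or control replicate 2 or 4 (limma adjusted p up to 0.0857) and in 11 of the 26 alternatives in all, and the Anxa5 call was lost without control replicate 2 (limma adjusted p = 0.0501).

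S100a4 (metastasin), which binds non-muscle myosin, is known from fibroblasts, macrophages and migrating cells. Its log2 ratios were -5.04, -4.81, -4.97 and -4.70 on EED cKO arrays and -5.26, -5.04, -5.68 and -4.87 on control arrays, and the groups overlapped. The log2 fold change was 0.33 (95% confidence interval 0.096 to 0.57, limma adjusted p = 0.0502), which did not pass. With the replicate number as a block in place of the dye the limma adjusted p was 0.0438, and S100a4 passed in 5 of the 26 alternatives in all. A second S100a4 probe gave 0.22 (limma adjusted p = 0.0861). Its partner Myh9, the heavy chain of non-muscle myosin, fell by 0.67 (limma adjusted p = 0.0138). Among 8 dermal fibroblast markers Lum rose by 0.50 (limma adjusted p = 0.0121) and Fbn1 by 0.30 (limma adjusted p = 0.0487), and Postn fell by 0.98 (limma adjusted p = 0.00387). Fbn1 was well above background on 3 EED cKO and 2 control arrays, so it passed the filter through EED cKO only. The mean log2 ratio of the 8 per array ranged from -2.23 to -2.13 in EED cKO and -2.35 to -2.02 in control. The part of these cells in the S100a4 values was not tested.

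S100a10 (p11) and S100a11 (calgizzarin) dock onto annexins at membranes, and both become cross-linked into the cornified envelope. S100a10 had log2 ratios of 1.14, 1.48, 1.43 and 1.71 on EED cKO arrays and 1.11, 0.97, 1.11 and 1.19 on control arrays. Only EED cKO replicate 1 lay within the control range. The log2 fold change of 0.35 (adjusted p = 0.0467 by limma, standard error 0.11) was near the threshold, and the call was kept without EED cKO replicate 1 and lost without any other array, with limma adjusted p-values up to 0.142. Within the Cy3 arrays the difference was 0.17 (limma adjusted p = 0.532) and within the Cy5 arrays 0.52 (limma adjusted p = 0.0603).

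S100a11 had log2 ratios of 0.66, 1.03, 0.78 and 1.04 on EED cKO arrays and 0.59, 1.16, 0.80 and 1.21 on control arrays. The values split by dye, and the EED cKO range lay within the control range. Among the Cy3 arrays the genotypes overlapped, while among the Cy5 arrays both EED cKO arrays were below both control arrays. The difference within the Cy5 arrays was -0.15 (limma adjusted p = 0.362). The log2 fold change was -0.064 (95% confidence interval -0.24 to 0.11, limma adjusted p = 0.599), so the interval leaves out a change of 2-fold in either direction. The S100a10 partner Anxa2, with which p11 forms a tetramer, fell by 0.27 (limma adjusted p = 0.0329), and Ahnak, a large scaffold protein bound by that tetramer, fell by 0.61 (limma adjusted p = 0.00212) with no EED cKO array as high as any control array. Anxa1, the S100a11 partner, differed by -0.16 (limma adjusted p = 0.194). Ahnak was called without each array in turn, but its log2 fold change was -0.056 (limma adjusted p = 0.804) with the median over its probes in place of the brightest one, and the call was lost in 3 of the 26 alternatives. Anxa2 was lost without EED cKO replicate 3 or 4 or control replicate 2, 3 or 4.

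S100a3 is a cysteine-rich protein of the hair cuticle. Its log2 ratios were 0.77, 0.72, 0.86 and 0.85 on EED cKO arrays and -0.0054, 0.09, 0.78 and 0.21 on control arrays. The EED cKO arrays were close together, while control replicate 3 was as high as they were. The log2 fold change was 0.53 (adjusted p = 0.0305 by limma, standard error 0.15). It was 0.71 (limma adjusted p = 0.00119) without control replicate 3, and the call was lost without any one of the other 7 arrays, at limma adjusted p-values of up to 0.0979. Of 8 tested hair shaft keratins and relatives, Krt31 was higher by 0.51 (limma adjusted p = 0.0102) and 7 did not pass, with a mean log2 ratio of 1.20 to 1.36 per array in EED cKO and 0.89 to 1.44 in control. The part of hair shaft cells in the S100a3 values was not tested. Padi3, the enzyme that citrullinates S100a3, rose by 0.35 (limma adjusted p = 0.0356), a call lost without 6 of the 8 arrays in turn.

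S100a14 and S100a16 are epithelial S100 proteins. S100a14 had log2 ratios of 4.47, 5.03, 4.52 and 5.19 on EED cKO arrays and 4.35, 4.81, 4.30 and 4.74 on control arrays. The values split by dye, with replicates 2 and 4 higher in both genotypes, and within each dye both EED cKO arrays were above both control arrays. With the dye in the fit the log2 fold change was 0.25 (adjusted p = 0.0323 by limma, standard error 0.072). Without the dye term the limma adjusted p was 0.43, and the epidermis channel alone gave 0.079 (limma adjusted p = 0.506). The call was kept without EED cKO replicate 1 or control replicate 1 and lost without any other array. S100a16 had log2 ratios of 1.61, 1.67, 1.65 and 1.80 on EED cKO arrays and 1.65, 1.55, 1.48 and 1.53 on control arrays, a log2 fold change of 0.13 (95% confidence interval -0.034 to 0.29, limma adjusted p = 0.237). Its second probe gave 0.19 (limma adjusted p = 0.14).

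**Figure D4:**
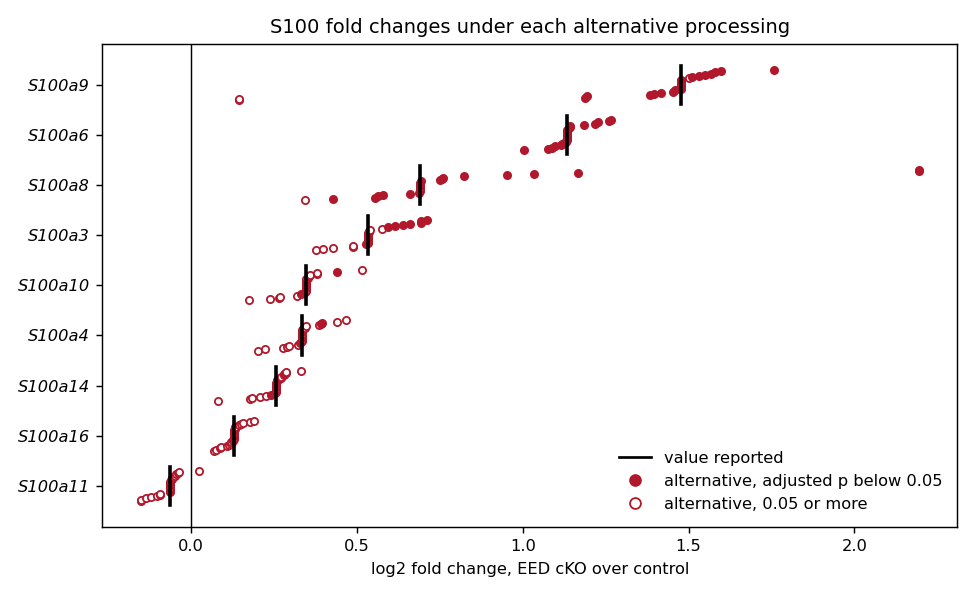
Log2 fold change of EED cKO over control (horizontal axis) for the 9 tested S100 genes under the alternative ways of processing, each a point, with the value reported here as a black bar. S100a6 stays between 1.00 and 1.27 and is called throughout, whereas S100a9 ranges from 0.14 to 1.76 and S100a8 from 0.34 to 2.19.

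Of 10 other small S100 genes looked for, 8 were on the array and 5 were tested. S100a1, best known from muscle, was higher in EED cKO by 0.59 (adjusted p = 0.00253 by limma, standard error 0.089), with no EED cKO array as low as any control array and a second probe at 0.55 (limma adjusted p = 0.0153). S100z was higher by 0.32 (adjusted p = 0.0216 by limma, standard error 0.08), with the reference channel well above background on 0 of 8 arrays, and its call was lost without EED cKO replicate 2 or 3 or control replicate 2. S100a13, which helps to export fibroblast growth factor, differed by 0.22 (limma adjusted p = 0.0978, and 0.0473 with the replicate number as a block). In the epidermis channel alone it differed by 0.46 (limma adjusted p = 0.0166). S100a2 differed by 0.14 (limma adjusted p = 0.292) and S100a5 by -0.069 (limma adjusted p = 0.574). S100b, S100g and S100a7l2 were too dim to be tested. No probe was matched for S100a15a and S100a17. The former is listed as another name of S100a7a in the RefSeq table.

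Of 17 partners, receptors and modifying enzymes of S100 proteins, 16 were tested, 3 rose (Anxa11, Padi3 and Tgm1), 4 fell (Ahnak, Anxa2, Anxa5 and Myh9) and 9 did not pass. Over all tested targets 21.7% were called, 11.8% higher and 9.93% lower. The median log2 fold change of the 16 was 0.021, beside 0.019 over all tested targets. Tgm1, the transglutaminase that cross-links S100 and other proteins into the cornified envelope, rose by 0.41 (limma adjusted p = 0.0457) and lost the call without any one array but control replicate 3. Tgm3 differed by -0.001 (limma adjusted p = 0.994). The count of 7 called fell to 3 without EED cKO replicate 3 or 4 or control replicate 4, to 2 without control replicate 2, and to 1 with median centring of the arrays.

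The S100 genes stand at both ends of the epidermal differentiation complex, with S100a1 to S100a9 at one end and S100a11 and S100a10 at the other. Between S100a1 and S100a10 the RefSeq table lists 86 genes outside the family. Of these, 51 were on the array and 44 were tested. Higher in EED cKO were 23 of the 44, and 0 were lower, beside 11.8% and 9.93% of all targets. The median log2 fold change was 0.43, and 12 were past 2-fold. The largest rises were those of Lce3f at 3.19 (standard error 0.14), Sprr2g at 2.32 (standard error 0.25) and Lce3d at 2.05 (standard error 0.23), the second annotated as a transcribed pseudogene. Lce3f was well above background on 4 EED cKO arrays but on only 2 control arrays. It passed the filter on dim probes through EED cKO only, and its control level is near the floor. Sprr and Lce genes have close copies, and their probes may share signal. Loricrin (Lor, 0.097, limma adjusted p = 0.386) and involucrin (Ivl, 0.34, limma adjusted p = 0.401) did not pass. The 12 were Lelp1, Sprr2g, Sprr1b, Sprr1a, Lce1k, Lce3b to Lce3f, Crnn and Rptn, all between S100a9 and S100a11. The other tested Sprr genes had log2 fold changes of -0.054 to 0.81, and of the Sprr and Lce3 genes Sprr2a2, Sprr2d and Lce3a did not pass the test. The count of 23 lay between 17 and 24 when each array was left out in turn.

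**Figure D5:**
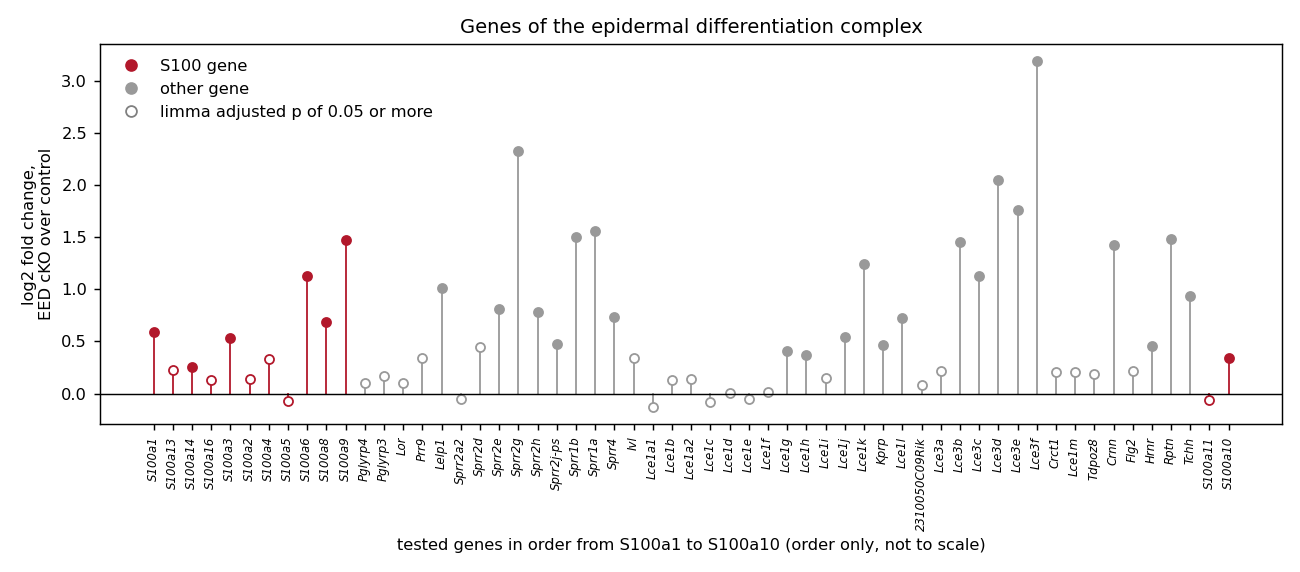
Log2 fold change of EED cKO over control (vertical axis) for the tested genes from S100a1 to S100a10 in their order on the chromosome, not to scale. Filled points passed the test. Every filled point lies above 0, and the highest is Lce3f at 3.19, a gene well above background on only 2 control arrays.

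Eed itself, the targeted gene, was lower in EED cKO by 1.46 on the log2 scale, with means of -1.80 in EED cKO and -0.35 in control and a log2 fold change of -1.46 (adjusted p = 2.1e-05 by limma, standard error 0.09). All 9 epidermal keratinocyte markers, among them Krt5, Krt14, Krt1, Krt10 and Lor, were measured. Itga6, an integrin subunit of the basal layer, fell by 0.74 (limma adjusted p = 0.0032), and the other 8 did not pass. Markers of other cell types also differed between the genotypes, where 11.8% of all targets were called higher. All 5 Merkel cell markers were higher (-1.19 to -1.11 per array in EED cKO and -2.02 to -1.87 in control). Among them, Atoh1 and Isl1 were each well above background on 4 EED cKO arrays but on only 2 control arrays. These genes passed the filter on dim probes through EED cKO only, and their control level is near the floor. Of 4 tested Langerhans cell markers 3 were higher (0.41 to 0.93 against -0.62 to 0.56), while Cd207, which defines these cells, was not tested. Kdr and Pecam1 of 3 tested endothelial markers were higher (0.49 to 0.77 against -0.089 to 0.22), and Cdh5 and Tek were not well above background on any array. None of 7 melanocyte and Schwann cell markers passed (2.50 to 2.74 against 2.35 to 2.73). The part of these cells in the S100 values was not tested.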

How the data were processed

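Epidermis from the backs of newborn mice, 4 EED cKO and 4 control, was hybridized to 8 two-colour Agilent arrays against Universal Mouse Reference RNA. Groups, replicate numbers and dyes were taken from the labels. The authors scanned the arrays with Agilent Feature Extraction 12.0.1.1 and deposited, per array, the raw intensity of spots and their surroundings in both channels, the processed intensity after background subtraction and dye normalization, and the log10 of Cy5 over Cy3. A deposited table holds log2 ratios. For 55249 probes with 1 spot these were within 7.33e-06 of the log2 ratio of the processed signals, sample over reference, with no centring and column medians of 0.033 to 0.14.

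Here the median spot intensity was corrected by normexp (offset 50), arrays were normalized by loess, ratios turned to sample over reference, and spots of a probe averaged. Control spots and outlier flags were left out. Values of a single channel had the same background correction and were then quantile normalized between arrays in place of loess. Probes were named by RefSeq accession (GRCm38.p6 table, 28026 of 29796 matched), and the brightest probe stood for a gene. Probe coordinates of the array design, which is on an older build, were not used. Targets whose sample channel was flagged well above background on 3 or more of the 4 arrays of either genotype were fitted with limma 3.58.1 in R 4.3.3 (genotype plus dye, eBayes, Benjamini-Hochberg). The 19 missing values among tested targets, none in an S100 gene, were left out of the fit. The fit was checked on simulated data. Between 51.5% and 65.5% of spots per array were well above background and 0 were saturated, and the number of arrays limits the precision.

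Deviations of same-numbered arrays from their group means correlated at 0.49, 0.68, 0.33 and 0.36 for numbers 1 to 4. Once the dye means were removed, the values were 0.13, 0.46, 0.13 and 0.46. They repeat by construction, because deviations of arrays that share genotype and dye then mirror each other, so they are not 4 separate checks. The numbers were taken to pair the arrays, but whether they mark paired animals or only a shared slide column was not tested. The labels call the arrays biological replicates without explaining the number. It also marks the slide column and, in part, the dye. The labels and the methods give different dispase and trypsin times.

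The members, the gene lists and the rule for named genes were chosen with earlier results of these data known. All members and other small S100 genes are named, with called partners, direct partners of members, the 3 largest changes among the genes between S100a1 and S100a10, Eed, and markers of 8 cell types. Markers and genes of the complex past 2-fold named one by one were chosen after their values were seen. Alternatives were other background corrections, values, normalizations, filters, probe rules, covariates, weights, the methods' t-test, 1 dye only, and each array left out.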

Additional observations from a re-analysis of the deposited data

Results flagged for a closer look

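In 28 groups of 4 arrays (14 tested S100 genes in both genotypes), 3 had an array whose distance to its nearest neighbour, as a share of the range of its group, was above Dixon's 95% critical value for 4 values. Chance alone gives such an array in about 1 of 20 groups. S100a8 stood at -2.01 on EED cKO replicate 4, against -1.82 to -1.81 on the other EED cKO arrays, with 0.923 of the range in that gap. S100a2 stood at 0.33 on EED cKO replicate 4 (0.948 of the range). S100a13 stood at -0.56 on EED cKO replicate 2 (0.868 of the range). Without EED cKO replicate 4 the S100a8 log2 fold change was 0.66 (limma adjusted p = 0.0443).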

How the results depend on the processing

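No log2 fold change of an S100 gene past the threshold in either fit changed sign under any of the 26 alternatives, and no member was called lower under any of them. The 6 members called (all higher) became 3 with the Feature Extraction log ratio, 3 with the deposited table, 2 without the dye term, 2 on the Cy3 arrays only, 3 on the Cy5 arrays only and 1 with the methods' t-test after Benjamini-Hochberg. Adding the 2-fold limit left 2, as did the methods' t-test at their unadjusted threshold with 2-fold. Leaving out 1 array gave 3 to 5. S100a9 lost its call with the Feature Extraction log ratio, the deposited table, the Cy5 arrays only and the methods' t-test, S100a8 without the dye term, on the Cy3 arrays only and with the methods' t-test, S100a3 in 11, S100a10 in 18 and S100a14 in 16 alternatives. With a replicate block 7 members were called, S100a4 in addition (limma adjusted p = 0.0438), and S100a13 passed (0.0473). Array weights also gave 7, with S100a4 at a limma adjusted p of 0.0406. S100a4 passed as well with the filter that asks for all 8 arrays (0.0495) and without control replicate 1 (0.0378) or 4 (0.0426). S100a13 also passed in the epidermis channel alone, at a log2 fold change of 0.46 (limma adjusted p = 0.0166). The replicate block changed no other call among the S100 genes and their partners.

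Of all targets, 5024 were called, and 2554 with median centring (1014 higher and 1540 lower, against 2727 and 2297), 2358 without the dye term, 496 on Cy3 arrays, 2466 on Cy5 arrays, 913 by the methods' t-test, and 2722 to 5064 with 1 array left out. The sign flips within pairs and the following counts were run after seeing the data. The 23 called genes of the complex became 14 with the Feature Extraction log ratio, 14 with the deposited table, 14 without the dye term, 6 on Cy3 arrays, 7 by the methods' t-test, and 17 to 24 with 1 array left out. The 7 called partners became 1 with median centring, 4 with the median over probes, 1 without the dye term, 0 on Cy3 arrays, 3 on Cy5 arrays, 0 by the methods' t-test, and 2 to 6 with 1 array left out. The cause of these shifts was not tested. One-dye fits have 2 arrays against 2. Aquantile leaves ratios as they are by construction. S100a8 could not be tested under the filter that asks for all 8 arrays. Dim probes limit S100a7a, S100a8 in control and S100a9 in the reference.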

Other observations

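The reference channel gives a second reading of the S100 genes, in RNA that was the same on every array. S100a14 had a processed reference intensity of 4342 to 4526 on the arrays with the epidermis in Cy3 and 2236 to 2887 on those with it in Cy5, while its epidermis intensity ranged from 73168 to 113130 over all 8 arrays. In the reference channel 0 of the 14 tested S100 genes differed between the arrays of the 2 genotypes after adjustment by limma, and S100a3, S100a9 and S100a13 had an unadjusted p below 0.05, with differences of 0.15 (95% confidence interval 0.021 to 0.27), 0.20 (0.056 to 0.35) and 0.18 (0.073 to 0.28).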
